A study of Mus musculus with 9 samples.

Results

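The insulin-like growth factor (IGF) axis was described here at the level of mRNA in HC11 cells, a mammary epithelial line from a BALB/c mouse that is used as a model of lactogenic differentiation. The members were the rows of the count table for 2 ligands (*Igf1*, *Igf2*), 3 receptors (*Igf1r*, *Igf2r*, *Insr*) and 5 binding proteins (*Igfbp2*, *Igfbp3*, *Igfbp4*, *Igfbp5*, *Igfbp6*), chosen by name, which makes 10 of the 55228 genes in the table. Of these, 9 had a count in some culture and 8 passed the filter on low counts, against 31678 and 15253 of all genes. *Igf1* and *Igf2* did not pass.

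IGF1 and IGF2 are secreted ligands that signal through the receptor tyrosine kinase IGF1R and through the related insulin receptor, while IGF2R, which also carries mannose 6-phosphate tagged enzymes to lysosomes, binds IGF2 and clears it. In fluid most IGF is held by IGF-binding proteins, which either keep it from its receptors or deliver it, and proteases such as PAPPA and PAPPA2 cut these carriers and free the ligand. In the mammary gland IGF signaling supports ductal growth and cell survival, IGFBP5 is known for its rise during involution, and insulin is a standard supplement of HC11 medium that at high concentration can also engage IGF1R.

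Poly-A RNA was sequenced from 9 undifferentiated, confluent cultures, with 3 each of parental *WT* cells and of the lines *KD1* and *KD2*, each cloned from a single colony after CRISPR/Cas9 editing of *Vangl2* with its own guide and a repair template that carries stop codons. The labels call both lines knockouts, and they do not say whether the 3 cultures of a line were separate by origin. All 9 cultures shared RPMI-1640 medium with 10% fetal bovine serum, 5 µg/mL insulin and 10 ng/mL epidermal growth factor, so none was without insulin and the response to insulin was not measured. No cloned but unedited line was analysed here, so the edit and the choice of a single cell cannot be told apart within a line, and the *KD1* and *KD2* comparisons share the same *WT* cultures. Depth ranged from 19231428 to 28360592 counts per culture.

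*Vangl2*, the edited gene, was at 3.38, 3.96 and 4.20 CPM in *WT*, 2.77, 1.89 and 2.78 CPM in *KD1* and 3.64, 3.93 and 4.43 CPM in *KD2*. The transcript fell in *KD1*, with a log2 fold change of -0.63 (SE 0.171, edgeR adjusted p = 0.0058), while *KD2* overlapped *WT* at 0.05 (SE 0.162, edgeR adjusted p = 0.81). CPM are counts per 1000000 counts of a library size adjusted by TMM, a scaling that sets the bulk of genes equal between libraries. Stop codons in a template need not remove the mRNA, so these counts do not test the edit. Replicates also differed in how closely they matched. *WT* replicate 1 and *KD2* replicate 3 stood apart from the other cultures of their lines, with a chi-square per degree of freedom of 10.7 to 13.1 and of 17.4 to 22.1 against them, whereas the other *WT* pair was at 3.38, the other *KD2* pair at 1.74 and the *KD1* pairs at 1.37 to 1.81.

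The epithelial label was checked against its markers. Of 8 epithelial markers 7 were measured, led by the basal keratin *Krt5*, and *Krt19* had no count in any culture. Summed over these markers, *WT* reached 5240 ± 314 CPM, *KD1* 5596 ± 72.8 CPM and *KD2* 3240 ± 363 CPM (SD, n = 3). Of the 7 epithelial markers 3 rose and 0 fell in *KD1*, where 56.9% of all genes tested passed. In *KD2* 1 rose and 4 fell, where 67.2% passed. Markers of other cell types summed to far less. The 10 fibroblast markers summed to 20.03 ± 3.04 CPM in *WT*, led by *Pdgfra*, to 9.20 ± 1.05 CPM in *KD1*, also led by *Pdgfra*, and to 93.9 ± 5.52 CPM in *KD2*, where *Pdgfrb* alone gave 66.8 CPM. Of the 5 fibroblast markers that passed the filter 4 fell in *KD1*, and 3 rose and 1 fell in *KD2*, beside 56.9% and 67.2% of all genes tested that passed in these lines. In *WT* *Dcn*, *Lum*, *Dpt* and *Thy1* were at 0, in *KD1* *Col1a2*, *Lum*, *Dpt* and *Thy1*, and in *KD2* *Dpt*. Endothelial markers summed to 2.21, 5.25 and 1.86 CPM in *WT*, *KD1* and *KD2*, with *Pecam1* leading and *Emcn* at 0 in each line. Immune markers summed to 4.24, 8.03 and 4.19 CPM, with *Cd68* leading and *Adgre1* at 0 in each line, and adipocyte markers to 0.476, 0.649 and 0.677 CPM, with *Cfd* leading. The part of these differences in the results on the IGF axis was not tested.

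Against *WT*, the largest differences among the 8 tested members were those of binding proteins in *KD1*. The ligand *Igf1*, too rare to be tested, was higher in *KD2* from a few counts per culture. In *KD1* *Igfbp3* rose 7.35-fold, *Igfbp4* fell to 0.117 and *Igfbp5* to 0.281 of the *WT* level, and *Igfbp2* had no count. In *KD2* the same transcripts stayed within a log2 fold change of 1 of *WT*, and all 3 receptors fell. Since the RNA comes from whole cultures, fewer cells that express a gene and less RNA per cell cannot be told apart.

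Among the 8 members tested, 6 passed the adjusted p of 0.05 in *KD1* against *WT* (2 rose, 4 fell), where 56.9% of all genes tested did. With an absolute log2 fold change above 1 as well, the rule for a called gene, 1 member was called higher and 3 were called lower, beside 9.34% of all genes called higher and 7.49% called lower. In *KD2* against *WT* 6 members passed (1 rose, 5 fell) beside 67.2% of all genes, and 0 of the 8 were called in edgeR, beside 14.5% of all genes called higher and 6.71% called lower (0 at an unadjusted p under 0.05 too, and 0 with DESeq2). In *KD2* against *KD1* all 8 tested members passed (4 rose, 4 fell) beside 67.8% of all genes, with 4 called higher and 2 called lower, beside 14.7% and 8.58% of all genes. The median log2 fold change of the tested members was -0.54 in *KD1*, -0.27 in *KD2* and 0.49 between the lines, against -0.03, 0.01 and 0.02 over all genes tested.

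**Figure D1:**
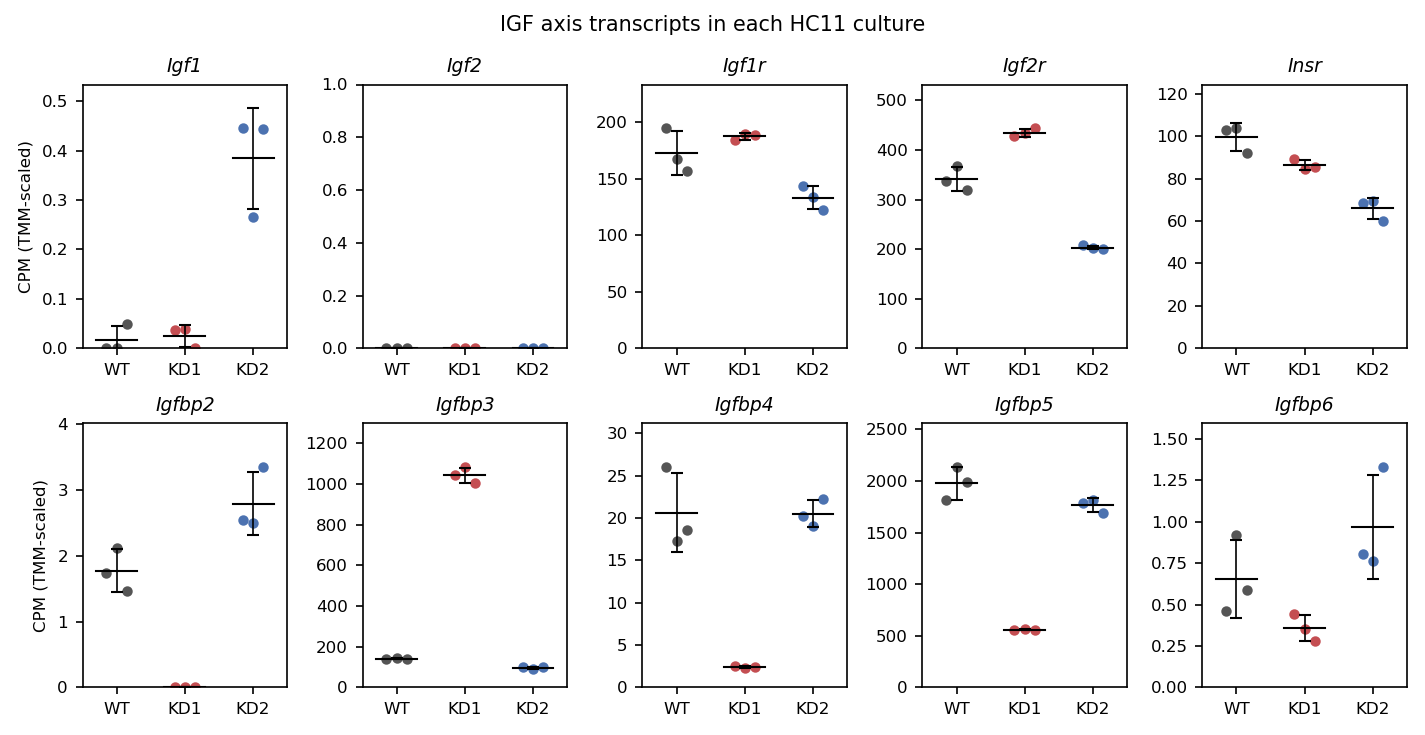
TMM-scaled CPM (y axis, linear, from 0, with its own scale in each panel) of each IGF axis transcript in the 3 cultures of *WT*, *KD1* and *KD2*. Points are cultures, the long bar is the mean and the error bar the SD (n = 3); *Igfbp3* stands high and *Igfbp2*, *Igfbp4* and *Igfbp5* stand low in the 3 *KD1* cultures, the 3 receptors are lowest in *KD2*, and *Igf2* is at 0 in all 9 cultures.

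Of the ligands, *Igf1* (ENSMUSG00000020053, chr10:87858265-87937042, plus strand of GRCm38) had 0, 0 and 1 counts in *WT*, 1, 1 and 0 in *KD1* and 11, 8 and 9 in *KD2*. The 3 *KD2* cultures were thus the only ones above the floor of 3 counts, and they did not overlap the others. The *KD2* cultures were also those with the highest sum of fibroblast markers, whose part in the *Igf1* counts was not tested. Summed over cultures and scaled to depth, the *KD2* level was 24.2 times that of *WT* (28 against 1 count, exact 95% interval 4.01 to 991) and 14.4 times that of *KD1* (28 against 2 counts, 3.63 to 125), where the intervals cover counting error only. With no filter on low counts *Igf1* passed in *KD2* against *WT*, with a log2 fold change of 4.18 (SE 0.889, edgeR adjusted p = 1.3e-05). Its level of 0.0388 CPM per kb of exon was the lowest of any detected member in *KD2*. Adjusted p-values from the unfiltered fit are not on the scale of the others given here. For *Igfbp5* in *KD1* against *WT* the edgeR adjusted p was 5e-174 without the filter and 1e-11 with it. *Igf2* (ENSMUSG00000048583, chr7:142650766-142666816, minus strand) had no count in any of the 9 cultures, which allows up to 3 counts, or 0.0999 to 0.154 CPM, in a culture. Of its exon bases 62.8% also belong to the gene model *Gm49394* on the same strand, which was at 0 as well, and reads that fall in both may not be assigned to either.

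In *KD2* against *KD1* the receptors differed less than the binding proteins did. *Igf1r* (ENSMUSG00000005533, chr7:67952827-68233668, plus strand), the main signaling receptor for both ligands, was at 194, 167 and 157 CPM in *WT*, 184, 189 and 188 CPM in *KD1* and 143, 134 and 122 CPM in *KD2*. The *KD1* cultures lay within the range of *WT*, while every *KD2* culture was below it. Its log2 fold change was 0.12 (SE 0.0786, edgeR adjusted p = 0.22) in *KD1* and -0.37 (SE 0.0791, edgeR adjusted p = 0.00083) in *KD2*, so it passed in *KD2* and not in *KD1*, and the edited lines differed by -0.49 (SE 0.0789, edgeR adjusted p = 7.6e-05). The *KD1* call depends on the cultures used, since it passed with the 6 compared cultures alone (0.16, edgeR adjusted p = 0.049), without *WT* replicate 1 (0.21, edgeR adjusted p = 0.027) and without *KD2* replicate 3 (0.14, edgeR adjusted p = 0.042). Without *WT* replicate 3 the *KD1* value was smaller, at 0.076 (edgeR adjusted p = 0.47).

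*Igf2r* (ENSMUSG00000023830, chr17:12682406-12769664, minus strand), the scavenger of IGF2, was at 338, 368 and 319.8 CPM in *WT*, 428, 434 and 443 CPM in *KD1* and 208, 202 and 201 CPM in *KD2*. The 3 lines did not overlap, with *KD1* highest and *KD2* lowest. It rose in *KD1* by a log2 fold change of 0.35 (SE 0.0585, edgeR adjusted p = 0.00017), fell in *KD2* at -0.75 (SE 0.0590, edgeR adjusted p = 8.3e-08), and was called lower in *KD2* than in *KD1* at -1.10 (SE 0.0592, edgeR adjusted p = 1.2e-09). *Insr* (ENSMUSG00000005534, chr8:3122061-3279617, minus strand), the insulin receptor, was at 103, 104 and 91.9 CPM in *WT*, 89.1, 84.3 and 85.6 CPM in *KD1* and 68.5, 69.2 and 60.2 CPM in *KD2*. Here the order was *WT*, *KD1*, *KD2* with no overlap between lines. It fell at -0.20 (SE 0.0695, edgeR adjusted p = 0.022) in *KD1* and at -0.59 (SE 0.0702, edgeR adjusted p = 5.1e-06) in *KD2*, and was lower in *KD2* than in *KD1* at -0.39 (SE 0.0701, edgeR adjusted p = 0.00022). The fall in *KD1* lost its call when *WT* replicate 1 or 2, or *KD1* replicate 2 or 3, was left out (edgeR adjusted p = 0.071 to 0.14), and under a filter of at least 10 counts in every culture (edgeR adjusted p = 0.058).

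The ratio of *Igf1r* to *Insr*, in CPM per kb of exon, was 1.42 ± 0.116 in *WT*, 1.78 ± 0.0776 in *KD1* and 1.65 ± 0.0636 in *KD2* (SD, n = 3). The lowest *KD1* and *KD2* cultures, at 1.69 and 1.58, were above the highest *WT* culture, at 1.55. The ratio of *Igf2r* to *Igf1r* was 3.60 ± 0.422, 4.19 ± 0.0587 and 2.76 ± 0.175 in *WT*, *KD1* and *KD2*.

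Because *Igfbp2*, *Igfbp4* and *Igfbp5* were low in *KD1* and *Igfbp3* was high there, the promoters of these 4 genes are shown to set their starts beside each other. Each run holds 250 bases before to 50 bases after the RefSeq start on GRCm38.p6, 5′ to 3′ on the strand of the gene. Of the 10 members 9 had a promoter in the table used, with *Insr* the other one. Capitals mark a TATA box (TATAAA) or a GC box (GGGCGG), and the STAT5 motif TTCNNNGAA was also searched, each on both strands.
*Igfbp2*, chr1:72824230-72824529, plus strand: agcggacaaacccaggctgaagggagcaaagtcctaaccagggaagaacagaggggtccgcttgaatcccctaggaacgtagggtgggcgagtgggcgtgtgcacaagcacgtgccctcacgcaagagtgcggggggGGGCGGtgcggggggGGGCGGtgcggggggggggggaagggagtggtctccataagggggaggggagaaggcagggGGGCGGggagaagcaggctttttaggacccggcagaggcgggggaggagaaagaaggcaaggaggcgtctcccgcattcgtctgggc
*Igfbp3*, chr11:7213874-7214173, minus strand: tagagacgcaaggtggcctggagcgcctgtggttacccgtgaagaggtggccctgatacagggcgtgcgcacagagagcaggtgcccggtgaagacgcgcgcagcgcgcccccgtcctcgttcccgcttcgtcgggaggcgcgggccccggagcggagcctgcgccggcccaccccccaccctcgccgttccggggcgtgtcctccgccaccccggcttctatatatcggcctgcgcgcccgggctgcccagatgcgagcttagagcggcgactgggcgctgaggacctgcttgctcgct
*Igfbp4*, chr11:99040994-99041293, plus strand: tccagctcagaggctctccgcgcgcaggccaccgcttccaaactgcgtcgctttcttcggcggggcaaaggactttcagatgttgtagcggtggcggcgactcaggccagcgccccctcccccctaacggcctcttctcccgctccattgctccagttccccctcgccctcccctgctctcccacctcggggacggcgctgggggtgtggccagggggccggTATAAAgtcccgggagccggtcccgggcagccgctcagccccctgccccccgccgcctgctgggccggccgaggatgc
*Igfbp5*, chr1:72874816-72875115, minus strand: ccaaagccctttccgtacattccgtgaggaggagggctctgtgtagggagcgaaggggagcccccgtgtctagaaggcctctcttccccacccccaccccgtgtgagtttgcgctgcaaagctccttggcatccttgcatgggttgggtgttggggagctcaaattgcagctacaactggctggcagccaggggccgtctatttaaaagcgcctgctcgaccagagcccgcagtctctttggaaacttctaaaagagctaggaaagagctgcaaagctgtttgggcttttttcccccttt

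The *Igfbp2* window held 3 GC boxes, at 113, 98 and 37 bases before the start, where 35.7% of the 32851 promoters of the same length held at least 1. The *Igfbp4* window held 1 TATA box, 28 bases before the start, which 13.6% of all promoters held. None of these 3 motifs was spelled in the *Igfbp3* or *Igfbp5* window, and the STAT5 motif, in 8.30% of all promoters, was in none of the 4. The windows of *Igfbp3*, *Igfbp4* and *Igfbp2* were 71.7%, 71.3% and 67.0% GC with 37, 27 and 18 CpG pairs, and that of *Igfbp5* was 56.3% GC with 10, against a median of 52.7% and 7 over all promoters. No motif of the 3 was shared by the windows of the transcripts that were low in *KD1*.

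*Igfbp3* (ENSMUSG00000020427, chr11:7206086-7213923, minus strand), the main carrier of IGF in serum and a gene with growth-restraining roles in many epithelia, was at 139, 146 and 141 CPM in *WT*, 1043, 1082 and 1006 CPM in *KD1* and 98.0, 89.2 and 99.9 CPM in *KD2*. Every *KD1* culture was several times above every other culture, and every *KD2* culture was below every *WT* culture. It rose in *KD1* by a log2 fold change of 2.88 (SE 0.0620, edgeR adjusted p = 1.3e-13) and fell in *KD2* at -0.57 (SE 0.0593, edgeR adjusted p = 1.4e-06). Between the edited lines it was 10.9-fold lower in *KD2*, a log2 fold change of -3.45 (SE 0.0636, edgeR adjusted p = 1.9e-14).

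*Igfbp5* (ENSMUSG00000026185, chr1:72857932-72874884, minus strand), an abundant carrier of the mammary epithelium that also binds extracellular matrix, was at 1813, 2131 and 1993 CPM in *WT*, 556, 562 and 552 CPM in *KD1* and 1791, 1817 and 1689 CPM in *KD2*. The *KD1* cultures lay close together and far below the rest, whereas *KD2* and *WT* overlapped. It fell 3.55-fold in *KD1*, a log2 fold change of -1.83 (SE 0.0616, edgeR adjusted p = 1e-11). In *KD2* the fall was small, at -0.16 (SE 0.0596, edgeR adjusted p = 0.025), and it lost its call under scaling by library size alone (-0.05, edgeR adjusted p = 0.43), a filter of at least 10 counts in every culture (-0.09, edgeR adjusted p = 0.19) and the 6 compared cultures alone (edgeR adjusted p = 0.074), and without *KD2* replicate 3, *WT* replicate 2 or *WT* replicate 3 (edgeR adjusted p = 0.068 to 0.23). The lines differed by 1.66 (SE 0.0613, edgeR adjusted p = 1.8e-11).

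*Igfbp4* (ENSMUSG00000017493, chr11:99041244-99054392, plus strand), a carrier that mainly restrains IGF action and is the classical substrate of PAPPA, was at 26.0, 17.3 and 18.6 CPM in *WT*, 2.55, 2.28 and 2.38 CPM in *KD1* and 20.3, 19.01 and 22.2 CPM in *KD2*. The *KD1* cultures were below all others and the remaining lines overlapped. It fell 8.58-fold in *KD1*, at -3.09 (SE 0.162, edgeR adjusted p = 1.3e-09), did not pass in *KD2*, at -0.0050 (SE 0.126, edgeR adjusted p = 0.98), and was higher in *KD2* than in *KD1* at 3.09 (SE 0.161, edgeR adjusted p = 8.3e-10). The sign of the *KD2* value turned under 5 other settings and when *WT* replicate 1 (0.19), *KD2* replicate 1 or *KD2* replicate 2 was left out, so no direction is given for it.

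*Igfbp2* (ENSMUSG00000039323, chr1:72824503-72852474, plus strand), a carrier with an integrin-binding motif and higher affinity for IGF2, was a rare transcript with 34, 53 and 30 counts in *WT*, 0, 0 and 0 counts in *KD1* and 63, 75 and 68 counts in *KD2*. No *KD1* culture held a read, and every *KD2* culture held more than any *WT* culture. Set against a floor of 3 counts per library, *KD1* was at least 15.2-fold below *WT* and at least 24.0-fold below *KD2* (edgeR adjusted p = 2.8e-07 and 3.4e-08). It rose in *KD2* from 1.78 ± 0.329 CPM to 2.80 ± 0.476 CPM (SD, n = 3), with no overlap, at 0.63 (SE 0.204, edgeR adjusted p = 0.017), a call that was lost without *WT* replicate 3 (0.53, edgeR adjusted p = 0.059). *Igfbp6* (ENSMUSG00000023046, chr15:102144362-102149511, plus strand), a carrier with a strong preference for IGF2, was rarer still, with 9, 23 and 12 counts in *WT*, 12, 9 and 7 counts in *KD1* and 20, 23 and 27 counts in *KD2*. At this depth neither line passed against *WT*, at -0.88 (SE 0.373, edgeR adjusted p = 0.057) in *KD1* and 0.48 (SE 0.314, edgeR adjusted p = 0.19) in *KD2*, though *KD2* was higher than *KD1* at 1.37 (SE 0.342, edgeR adjusted p = 0.0028). The *KD1* value passed with the 6 compared cultures alone (-0.84, edgeR adjusted p = 0.05 as rounded), without *WT* replicate 1 (-1.07, edgeR adjusted p = 0.036) and without *KD2* replicate 3 (-0.87, edgeR adjusted p = 0.037), whereas it was -0.51 without *WT* replicate 2 (edgeR adjusted p = 0.34) and -0.74 without *KD1* replicate 3 (edgeR adjusted p = 0.17). The *KD2* value was 0.86 without *WT* replicate 2 (edgeR adjusted p = 0.055). It was 0.29 without *WT* replicate 1 (edgeR adjusted p = 0.47) and 0.25 without *KD2* replicate 3 (edgeR adjusted p = 0.51).

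**Figure D2:**
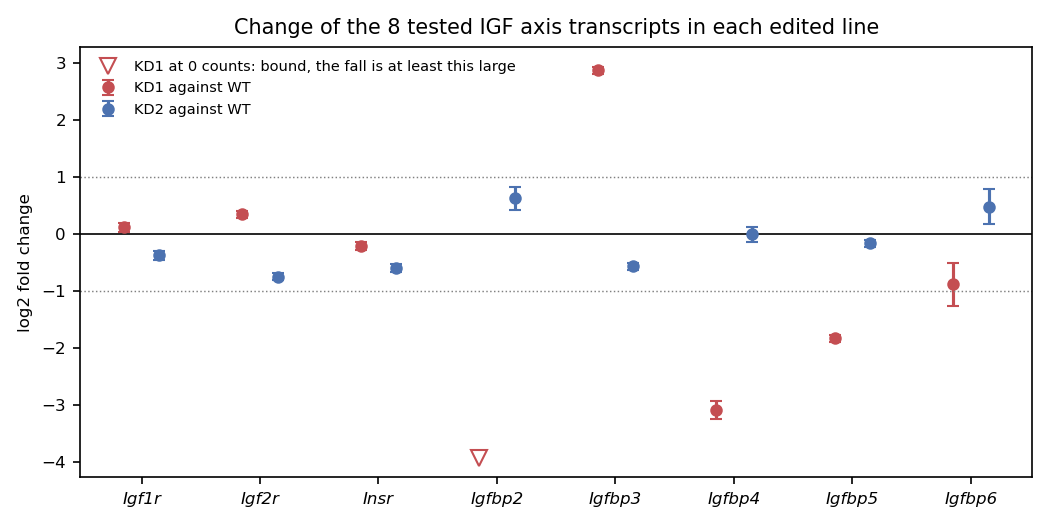
Log2 fold change (y axis) of the 8 tested IGF axis transcripts in *KD1* against *WT* (red) and *KD2* against *WT* (blue), with the SE as error bars and dotted lines at 1 and -1. The open triangle is the bound for *Igfbp2* in *KD1*, which had 0 counts; 4 of the red marks lie beyond a dotted line (*Igfbp2*, *Igfbp3*, *Igfbp4* and *Igfbp5*) and 0 of the blue ones do.

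Levels of different genes were set in order as CPM per kb of exon. In *WT* the order was *Igfbp5* (330 ± 26.5), *Igfbp3* (45.4 ± 1.12), *Igf2r* (36.7 ± 2.59), *Igf1r* (10.3 ± 1.15), *Insr* (7.23 ± 0.474), *Igfbp4* (4.67 ± 1.06), *Igfbp2* (0.961 ± 0.178) and *Igfbp6* (0.590 ± 0.213). Among neighbours in this order *Igfbp2* and *Igfbp6* overlapped, and the rest did not. *KD2* kept this order, with *Insr* (4.80 ± 0.367) and *Igfbp4* (4.64 ± 0.368) overlapping. In *KD1* *Igfbp3* (333 ± 12.2) came first and *Igfbp5* (92.7 ± 0.827) second, followed by *Igf2r* (46.7 ± 0.843), *Igf1r* (11.2 ± 0.170), *Insr* (6.28 ± 0.182), *Igfbp4* (0.544 ± 0.0305) and *Igfbp6* (0.323 ± 0.0724).

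The composition of the binding protein pool was then computed as the share of each transcript in the summed CPM per kb of *Igfbp1* to *Igfbp7*, with *Igfbp1* at 0 throughout. The sum itself came to 396 ± 27.95 for *WT*, 447 ± 13.5 for *KD1* and 372 ± 4.53 CPM per kb for *KD2* (SD, n = 3), with *KD1* above the others and *WT* and *KD2* overlapping. This order turned without division by exon length, where the sum was highest in *WT* (2162 ± 159.9 CPM) and lowest in *KD1* (1627 ± 43.6), with *KD2* between them (1934 ± 55.5) and no overlap, so no direction is given for the sum. *Igfbp5* made up 82.1%, 83.7% and 83.5% of the *WT* pool, 20.7%, 20.3% and 21.2% of the *KD1* pool, and 79.6%, 80.8% and 76.7% of the *KD2* pool. *Igfbp3* was 12.1%, 11.0% and 11.3% in *WT*, 74.6%, 75.0% and 74.1% in *KD1*, and 8.36%, 7.61% and 8.71% in *KD2*. The leading carrier transcript was therefore *Igfbp3* in the 3 *KD1* cultures and *Igfbp5* in the other 6, and the ratio of *Igfbp3* to *Igfbp5* was 0.138 ± 0.00820 in *WT*, 3.59 ± 0.0997 in *KD1* and 0.104 ± 0.00969 in *KD2*. *Igfbp7*, a related protein of low affinity for IGF, made up 3.83% ± 0.0804 in *WT*, 4.46% ± 0.0488 in *KD1* and 10.8% ± 1.36 in *KD2*. Without division by exon length the leading transcripts stayed the same, but *Igfbp3* came to 6.58%, 64.1% and 4.96% of the *WT*, *KD1* and *KD2* pools and *Igfbp5* to 91.5%, 34.2% and 91.3%. The ratio of *Igfbp3* to *Igfbp5* was then 0.0720 ± 0.00427, 1.87 ± 0.0520 and 0.0543 ± 0.00505.

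**Figure D3:**
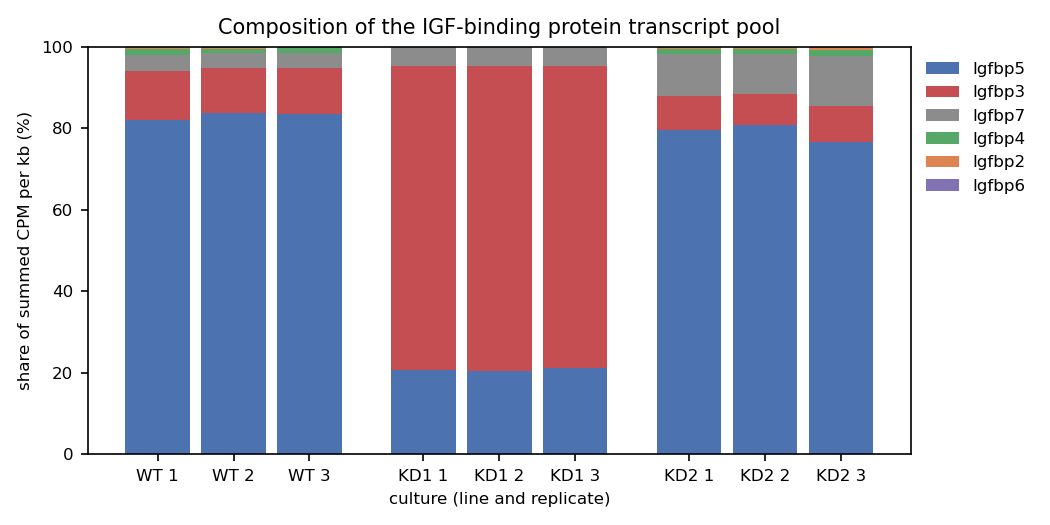
Share of each transcript in the summed CPM per kb of the IGF-binding proteins (y axis, percent, from 0), 1 stacked bar per culture. *Igfbp5* fills 76.7% to 83.7% of the bars of *WT* and *KD2*, and *Igfbp3* fills 74.1% to 75.0% of the *KD1* bars.

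The members do not share a location, except that *Igfbp2* and *Igfbp5* lie 5457 bases apart on chromosome 1, on opposite strands with their 3′ ends facing. Both fell in *KD1*, while in *KD2* *Igfbp2* rose and *Igfbp5* fell slightly. The 9 tested genes within 1 Mb of each, the other of the pair included, had a median log2 fold change of -0.34 in *KD1*, where the other 905 tested genes of the chromosome were at -0.05. In *KD2* the median was 0.48 around *Igfbp2* and 0.63 around *Igfbp5*, against 0.14 for the chromosome. *Igfbp3* and *Igfbp4* both lie on chromosome 11 and moved in opposite directions in *KD1*, where the genes within 1 Mb of them were at -0.02 and 0.09. *Igf2r* fell in *KD2* although the 18 tested genes within 1 Mb of it on chromosome 17 had a median of 0.62 and the chromosome of 0.28. *Insr* fell in *KD1* by no more than its chromosome did, at -0.20 where the other 831 tested genes of chromosome 8 had a median of -0.27 and the 22 within 1 Mb one of -0.05. In *KD2* it was at -0.59 against medians of -0.19 and -0.17. *Igf1r* in *KD2* was at -0.37 against 0.03 for chromosome 7 and -0.11 for the 9 genes within 1 Mb, and *Igfbp6* in *KD1*, which did not pass, at -0.88 against -0.16 for chromosome 15 and 0.03 for the 45 within 1 Mb. Whether copy number differed between the lines was not tested.

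For the members with the widest range of line means, *Igfbp2* (5.11 on the log2 CPM scale) and *Igfbp3* (3.45), the genes of most similar profile were sought by the root mean square difference in centred log2 CPM over the 9 cultures. For *Igfbp2* these were *Cited4* (0.197), *Lrrc75b* (0.245) and *Panx3* (0.257), and *Panx3* was likewise at 0 CPM in *KD1*, with means of 1.82 CPM in *WT* and 2.71 CPM in *KD2*. Since *Igfbp2* had no count in *KD1*, its range and its nearest profiles depend on the prior count, a small count added before the log. *Cited4*, a transcriptional co-regulator, had means of 26.6, 1.25 and 43.9 CPM in *WT*, *KD1* and *KD2*. For *Igfbp3* they were *Pcdh7* (0.138), *Blnk* (0.157) and *Hao1* (0.199). *Pcdh7*, a protocadherin, had means of 28.4, 175.5 and 17.6 CPM.

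The other genes of the pathway were taken from lists of 99 genes, of which 91 had a count and 81 were tested. In *KD1* 20 of them rose and 34 fell, with 7 called lower, at a median log2 fold change of -0.06. The share that passed was 66.7%, beside 56.9% of all genes tested, and the share called lower 8.64%, beside 7.49%. In edgeR 0 were called higher (0 at an unadjusted p under 0.05 too, and 1 with DESeq2), beside 9.34% of all genes. In *KD2* 33 rose and 25 fell, with 11 called higher and 4 called lower, at a median of 0.10. Here 71.6% passed, beside 67.2% of all genes, while 13.6% were called higher and 4.94% lower, beside 14.5% and 6.71%. *KD2* exceeded *KD1* in 45 and was below it in 20, with 14 called higher and 3 called lower, which makes 80.2% that passed, 17.3% called higher and 3.70% called lower, beside 67.8%, 14.7% and 8.58% of all genes.

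The other ligands, receptors and carriers were largely silent. *Ins1*, *Ins2* and *Igfbp1* had no count, *Insrr* had 2 counts in 1 *KD1* culture, *Igfbpl1* had 3 in 1 *KD2* culture, and *Igfals*, the subunit that stabilizes IGF in serum, had between 0 and 4 counts per culture. *Igfbp7* was at 17.3, 19.9 and 18.0 CPM in *WT*, 23.8, 24.8 and 23.6 CPM in *KD1* and 46.2, 44.7 and 54.8 CPM in *KD2*, and rose without overlap in both lines, at 0.39 (SE 0.0892, edgeR adjusted p = 0.002) and 1.40 (SE 0.0867, edgeR adjusted p = 7.9e-09).

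Proteases that cut the binding proteins, and their inhibitors, did not all move one way in *KD1*. Of 9 listed 6 were tested, of which *Htra1* rose and 5 fell, with *Pappa*, *Pappa2* and *Stc2* called lower and *Adam9*, chosen after its values were seen, at -0.26 (SE 0.0608, edgeR adjusted p = 0.0025), and with a median log2 fold change of -1.37 when the gene without counts was set at its bound. Of all genes tested 56.9% passed in *KD1* and 7.49% were called lower. In *KD2* 2 rose and 2 fell, which is 66.7% of the 6 beside 67.2% of all genes, with a median of 0.14. All 6 were higher in *KD2* than in *KD1*, where 5303 of the 15253 genes tested rose and 67.8% passed in either direction. *Pappa2*, which cuts IGFBP3 and IGFBP5, had 9, 17 and 7 counts in *WT*, 0, 0 and 0 in *KD1* and 56, 76 and 52 counts in *KD2*. *KD1* thus lay at least 4.24-fold below *WT* (edgeR adjusted p = 3e-05) and the transcript rose in *KD2* at 2.27 (SE 0.251, edgeR adjusted p = 7e-06). *Pappa2* passed the filter on low counts only through its *KD2* counts, so its p-values lean on the line where it was high. *Stc2*, an inhibitor of the pappalysins, was at 83.6, 63.7 and 68.7 CPM in *WT*, 9.49, 8.81 and 9.88 CPM in *KD1* and 16.7, 16.2 and 18.3 CPM in *KD2*. It fell in both lines without overlap, at -2.94 (SE 0.104, edgeR adjusted p = 1.8e-11) and -2.08 (SE 0.0979, edgeR adjusted p = 5.6e-10). Chosen after their values were seen, *Pappa*, the protease of IGFBP4, was at 9.10 ± 2.22 CPM, 1.17 ± 0.195 CPM and 11.1 ± 1.40 CPM in *WT*, *KD1* and *KD2* (SD, n = 3) and fell in *KD1* at -2.95 (SE 0.207, edgeR adjusted p = 2.8e-08). *Htra1*, a serine protease that cuts IGFBP5, rose in both lines, at 0.28 (SE 0.0816, edgeR adjusted p = 0.0089) and 1.28 (SE 0.0823, edgeR adjusted p = 1.1e-08).

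**Figure D4:**
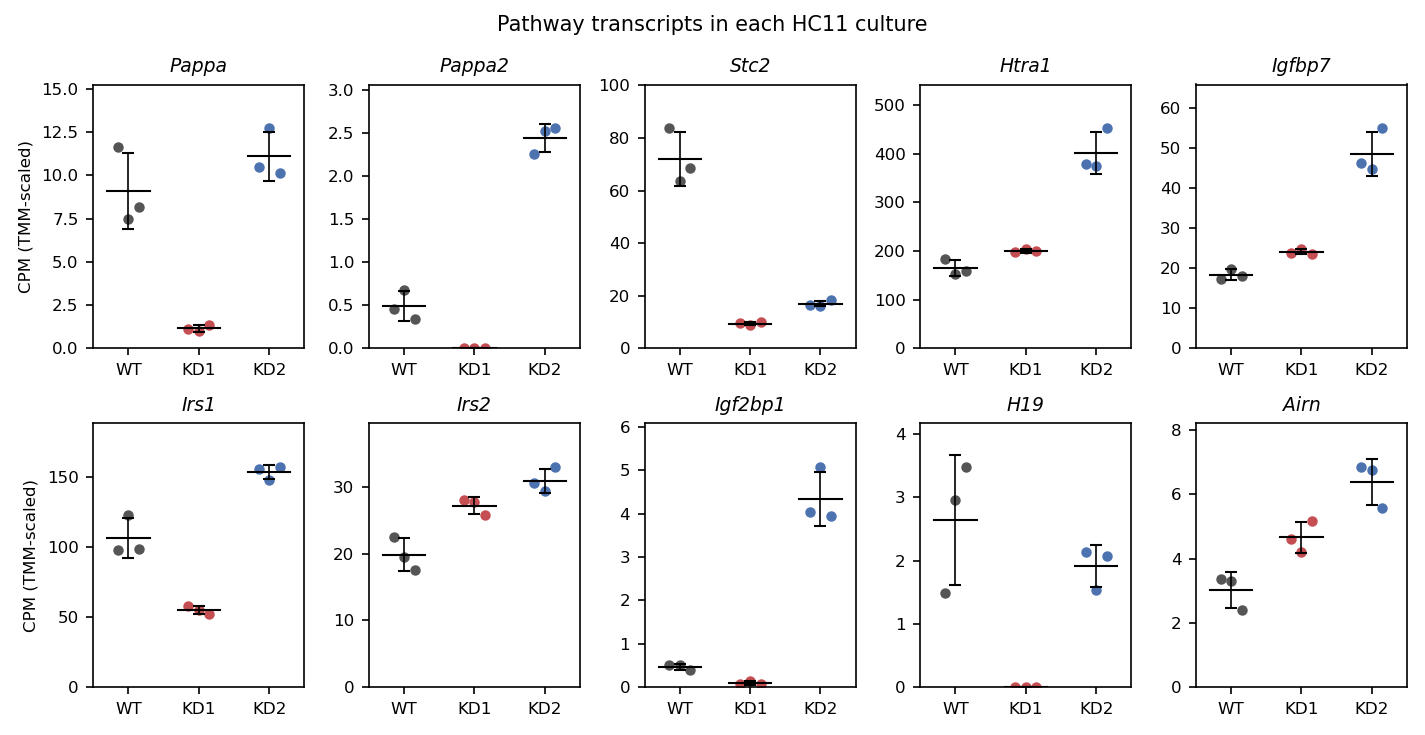
TMM-scaled CPM (y axis, linear, from 0, with its own scale in each panel) of 10 pathway transcripts in the 3 cultures of *WT*, *KD1* and *KD2*, with the mean and SD (n = 3). *Pappa2* and *H19* are at 0 in the *KD1* cultures, *Stc2* is below *WT* in both edited lines, and *Igf2bp1* is highest in *KD2*; *Pappa*, *Htra1* and *Irs2* were chosen after their values were seen.

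Adaptors that bind the activated receptors were mixed. Of 16 tested 4 rose and 5 fell in *KD1* (median -0.02) and 4 rose and 8 fell in *KD2* (median -0.14). The shares that passed, 56.2% and 75.0%, stood beside 56.9% and 67.2% of all genes tested. *Irs1*, the insulin receptor substrate that couples IGF1R to PI3K, was at 97.8, 123 and 99.0 CPM in *WT*, 57.8, 55.3 and 52.1 CPM in *KD1* and 156, 148 and 157 CPM in *KD2*. The lines did not overlap, and *Irs1* fell in *KD1* at -0.95 (SE 0.0847, edgeR adjusted p = 3.4e-07) and rose in *KD2* at 0.52 (SE 0.0825, edgeR adjusted p = 7e-05). Of its exon bases 30.9% overlap *Gm9747* on the opposite strand, and the sources used here do not say whether reads were counted by strand. *Irs2*, chosen after its values were seen, rose in both lines, at 0.45 (SE 0.0884, edgeR adjusted p = 0.00057) and 0.64 (SE 0.0881, edgeR adjusted p = 2.1e-05), so the ratio of *Irs1* to *Irs2* in CPM per kb was 3.76 ± 0.693 in *WT*, 1.40 ± 0.0224 in *KD1* and 3.44 ± 0.117 in *KD2*. *Grb14*, an adaptor that inhibits the insulin receptor, fell slightly in *KD1*, at -0.16 (SE 0.0654, edgeR adjusted p = 0.045), and rose in *KD2*, at 0.86 (SE 0.0643, edgeR adjusted p = 4.8e-08).

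In the PI3K, AKT and mTOR arm all 26 genes were tested, of which 4 rose and 12 fell in *KD1* (median -0.10), and 8 rose and 7 fell in *KD2* (median 0.09). The shares that passed were 61.5% in *KD1* and 57.7% in *KD2*, beside 56.9% and 67.2% of all genes. *Pik3r3*, a regulatory subunit of PI3K, was at 26.5 ± 1.47 CPM in *WT*, fell to 10.6 ± 0.468 CPM in *KD1*, at -1.32 (SE 0.0832, edgeR adjusted p = 8.9e-09), and rose to 50.5 ± 4.04 CPM in *KD2*, at 0.93 (SE 0.0748, edgeR adjusted p = 1e-07). *Eif4ebp1*, the translation repressor that mTOR inactivates, fell in both lines, from 248 ± 10.7 CPM to 158 ± 3.82 CPM and 96.7 ± 15.8 CPM, at -0.65 (SE 0.0889, edgeR adjusted p = 2.4e-05) and -1.36 (SE 0.0908, edgeR adjusted p = 1.6e-08). Of the *Pik3r3* exon bases 24.3% also belong to *Gm49337* on the same strand.

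FOXO factors, which insulin and IGF signaling hold out of the nucleus, drive genes that rise when the signal is low. Of 19 such targets 14 were tested, *Insr* among them, and 3 rose and 8 fell in *KD1* (median -0.24) while 7 rose and 3 fell in *KD2* (median 0.14). This makes 78.6% that passed in *KD1*, beside 56.9% of all genes, and 71.4% in *KD2*, beside 67.2%. *Txnip*, a regulator of glucose uptake, fell in both lines, from 157 ± 5.58 CPM to 37.5 ± 0.908 CPM in *KD1* and 92.5 ± 6.57 CPM in *KD2*, at -2.07 (SE 0.0661, edgeR adjusted p = 6.4e-12) and -0.76 (SE 0.0628, edgeR adjusted p = 1.3e-07). *Gadd45a*, a stress-response gene, also fell in both, at -0.95 (SE 0.0863, edgeR adjusted p = 4.3e-07) and -1.47 (SE 0.0883, edgeR adjusted p = 5.9e-09). Opposite-strand genes share 19.4% of the exon bases of *Txnip* and 19.1% of those of *Gadd45a*.

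IGF2R also sorts lysosomal enzymes by their mannose 6-phosphate tag, together with M6PR. All 15 genes of this list were tested, of which 7 rose and 3 fell in *KD1* (median 0.13) and 8 rose and 6 fell in *KD2* (median 0.26). Of the list 66.7% passed in *KD1* and 93.3% in *KD2*, against 56.9% and 67.2% of all genes. *Gaa*, which degrades glycogen in lysosomes, rose in both lines from 55.4 ± 1.73 CPM to 86.6 ± 2.04 CPM in *KD1* and 137 ± 17.8 CPM in *KD2*, at 0.65 (SE 0.0812, edgeR adjusted p = 1.1e-05) and 1.31 (SE 0.0813, edgeR adjusted p = 8e-09). *M6pr*, chosen after its values were seen, rose and fell in the same lines as *Igf2r*, rising in *KD1* at 0.70 (SE 0.0499, edgeR adjusted p = 3.5e-08) and falling in *KD2* at -0.16 (SE 0.0498, edgeR adjusted p = 0.01).

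**Figure D5:**
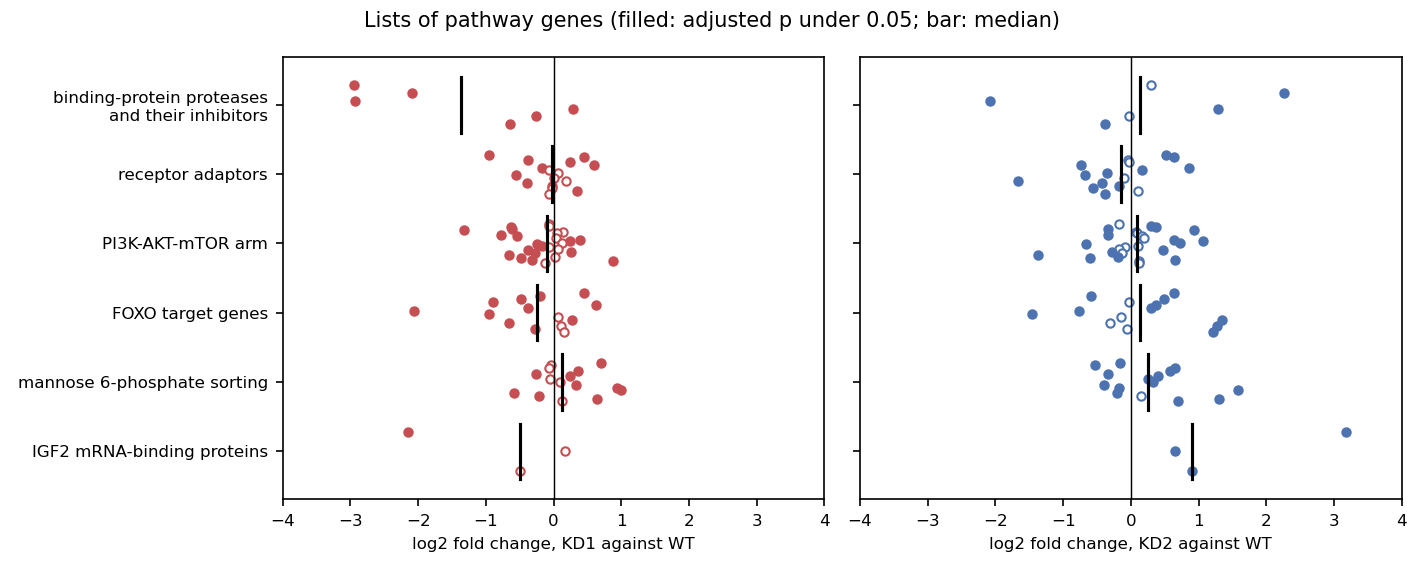
Log2 fold change (x axis) of each tested gene of 6 pathway lists in *KD1* against *WT* (left) and *KD2* against *WT* (right), filled where the adjusted p was under 0.05, with the median of each list as a black bar and *Pappa2* in *KD1* at its bound. The proteases and inhibitors lie lowest in *KD1* (median -1.37), and all 3 *IGF2* mRNA-binding proteins lie above 0 in *KD2*.

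The 3 proteins named for binding *Igf2* mRNA steer the stability and translation of many transcripts. All 3 passed as higher in *KD2*, while *Igf2* itself had no count. Of the 15253 genes tested 5181 rose in *KD2*, and 67.2% passed in either direction. *Igf2bp1* was at 0.512, 0.520 and 0.391 CPM in *WT*, 0.0738, 0.157 and 0.0807 CPM in *KD1* and 4.04, 5.06 and 3.94 CPM in *KD2*, with no overlap between lines. It fell in *KD1* at -2.15 (SE 0.429, edgeR adjusted p = 0.00069), from few counts, and rose in *KD2* at 3.18 (SE 0.219, edgeR adjusted p = 2.1e-08). *Igf2bp1* passed the filter on low counts only through its *KD2* counts, so its p-values lean on the line where it was high. *Igf2bp2* and *Igf2bp3* rose in *KD2* at 0.65 (SE 0.0789, edgeR adjusted p = 6.3e-06) and 0.91 (SE 0.256, edgeR adjusted p = 0.0063), and did not pass in *KD1*, at 0.17 (SE 0.0804, edgeR adjusted p = 0.095) and -0.49 (SE 0.302, edgeR adjusted p = 0.18). *Igf2bp3* had 10 to 50 counts per culture, and 18.7% of its exon bases overlap *Malsu1* on the opposite strand.

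Of 6 imprinted transcripts beside *Igf2* and *Igf2r*, *Ins2*, *Igf2os*, *Slc22a2* and *Slc22a3* had no count. *H19*, the noncoding RNA that shares enhancers with *Igf2*, had 29, 74 and 71 counts in *WT*, 0, 0 and 0 in *KD1* and 53, 46 and 42 counts in *KD2*. The *KD1* level was at least 22.6-fold under that of *WT* (edgeR adjusted p = 1.1e-06), and in *KD2* it overlapped *WT*, at -0.49 (SE 0.276, edgeR adjusted p = 0.14). *Airn*, the antisense RNA of the imprinted *Igf2r* locus, averaged 3.03 ± 0.554 CPM among *WT*, 4.66 ± 0.479 CPM among *KD1* and 6.38 ± 0.714 CPM among *KD2* cultures (SD, n = 3). It rose in both lines, at 0.62 (SE 0.159, edgeR adjusted p = 0.0044) and 1.08 (SE 0.154, edgeR adjusted p = 3e-05), while *Igf2r* rose in *KD1* and fell in *KD2*.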

How the data were processed

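RNA from 9 cultures was measured by the authors, who dropped reads whose average quality was below 20 (fastp), aligned to GRCm38 (HISAT2) and deposited raw read counts per gene over exons from featureCounts, with no normalization. Versions are not given in the sources used here, and 0 columns were left unused. The authors tested these counts with DESeq2. Lines and replicate numbers came from the labels, which do not say whether replicates were separate cultures by origin, so p-values measure the spread between these samples.

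Here, counts were tested with edgeR 4.0.16 in R 4.3.3 (quasi-likelihood, TMM scaling, its expression filter on the 3 lines, 1 fit of 9 cultures, Benjamini-Hochberg adjustment over 15253 genes), after the script was tested on simulated data. The simulation changed 200 genes, far fewer than passed in these data, so it did not test the scaling under so broad a change. The SE is the log2 fold change over the root of F. A fold against 3 cultures at 0 is a lower bound at 3 counts per library. Positions and exon lengths came from GENCODE for GRCm38, not the release named by the paper, and matched 53569 of 55228 names. Alternatives were DESeq2 1.42.0, other scalings and filters, 6 cultures only, a replicate block and each culture left out. The members and lists were chosen with earlier results of these data known. Genes named are the members, the 2 of each list with the largest change in either line among those passing in both, lists with 5 or fewer measured genes, and the 3 nearest profiles of 2 members, and others are said to be chosen later. A gene that this rule chose is not reported here.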

Additional observations from a re-analysis of the deposited data

Results flagged for a closer look

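The effects of the lines on the IGF axis differed from each other by the direct edgeR contrast of *KD2* against *KD1*, at an adjusted p under 0.05, for each of the 8 tested members. The log2 fold change of *KD2* against *KD1* was -0.49 for *Igf1r*, -1.10 for *Igf2r*, -0.39 for *Insr*, -3.45 for *Igfbp3*, 3.09 for *Igfbp4*, 1.66 for *Igfbp5* and 1.37 for *Igfbp6*. For *Igfbp2* the fitted value of 9.07 depends on the prior count, since *KD1* was at 0, and the bound is at least 24.0-fold. Of all genes tested 67.8% passed the same contrast.

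Among the pathway genes the contrast passed for *Igfbp7* (1.01), *Stc2* (0.86), *Irs1* (1.48), *Grb14* (1.03), *Eif4ebp1* (-0.71), *Pik3r3* (2.25), *Txnip* (1.30), *Gadd45a* (-0.52), *Gaa* (0.66), *Igf2bp1* (5.33), *Igf2bp2* (0.48), *Igf2bp3* (1.40) and *Airn* (0.46), each as a log2 fold change. For *Pappa2* (8.89) and *H19* (8.52) the fitted values again rest on the prior count, and the bounds are at least 21.0-fold and at least 16.4-fold. Of these 15 transcripts, *Irs1*, *Grb14*, *Pik3r3*, *Igf2bp1* and *Pappa2* fell in *KD1* and rose in *KD2* against the shared *WT* cultures. *Igf2bp1* and *Pappa2* passed the filter on low counts only through *KD2*. The share of all genes that moved in opposite directions is not given here, and 67.8% of all genes tested passed the contrast. The 15 were named for large changes against *WT* or from short lists, so their passing is not separate support.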

How the results depend on the processing

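Over the alternatives run, the log2 fold changes of the 8 tested members gave 378 values against the other settings, of which 352 kept their direction and their side of the threshold, 12 lost it, 6 gained it and 8 changed sign. The changes of sign were all for *Igfbp4* in *KD2* against *WT*, at -0.0050 in the report. The value was 0.0044 with DESeq2, 0.0057 with edgeR on median-of-ratios factors, 0.11 on unadjusted library sizes, 0.066 with at least 10 counts in every culture and 0.0073 with the replicate block, and it ranged from -0.10 to 0.19 when 1 culture was left out. Without exon length, the share of *Igfbp3* in the binding protein pool was 6.58%, 64.1% and 4.96% in *WT*, *KD1* and *KD2*, and that of *Igfbp5* 91.5%, 34.2% and 91.3%.

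Unadjusted library sizes moved the median of all genes by 0.11 in *KD2* against *WT* and 0.13 in *KD2* against *KD1*, and the share of rises among changed genes from 51.3% to 61.8% in the latter. Replicate numbers did not pair the cultures (mean correlation of deviations 0.0012 within and -0.0011 across numbers). Under the replicate block 6, 6 and 8 members and 54, 59 and 65 pathway genes passed in *KD1*, in *KD2* and between the lines. Leaving out 1 culture gave 5 to 8, 5 to 7 and 8 to 9 members and 49 to 61, 54 to 68 and 62 to 69 pathway genes. In 7 of these 9 fits *Igf1* was tested as well, entering the filter through its *KD2* counts alone, and among the 8 members of the report 5 to 8, 4 to 6 and 8 passed. With the 6 compared cultures alone 8 members passed in *KD1* against *WT*. The share of all genes that passed is not given for these other fits, so their counts are not read as results about the members or pathway genes. In the fit of the report that share was 56.9% in *KD1*, 67.2% in *KD2* and 67.8% between the lines. Depth limits *Igf1*, *Igfbp2* and *Igfbp6*, which hold at most 75 counts per culture.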
